A study of Mus musculus with 18 samples.

Results

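Transcripts of chromosome 9 were followed across a comparison of USF-depleted and control B lymphoma cells. The members were the array rows whose identifier places them on chromosome 9 and whose mean log2 value over the 18 arrays was above 4.66. There were 1364 of them among 3322 chromosome 9 rows and 72688 rows in all, and they were set against 25071 rows of the other autosomes above the same level. Chromosome 9 was chosen because its rows were lower in the USF-depleted cells than those of the other autosomes. That contrast is therefore described without a test, and tests are kept for irradiation within a line and for the difference in response between the lines. The difference in response equals the line difference after irradiation minus that in untreated cells. It is therefore not independent of the values that chose the chromosome.

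Both lines derive from M12-5B3, a p53-deficient mouse B lymphoma line that carries tetracycline-repressed recombination-activating genes. The Control line was stably transduced with a lentivirus for a scrambled short hairpin RNA, and the USFKD line with lentiviruses for hairpins against both Usf1 and Usf2. Cells of each line were untreated or were harvested 24 hr (1 day) or 7 days after a single 5 Gy dose of gamma radiation, with 3 arrays for each of the 6 groups. The lines are puromycin-resistant clones, so a difference between USFKD and Control cannot be told apart from a difference between clones. There was 1 untreated group per line, so a change after irradiation cannot be told apart from time in culture. The arrays measure RNA, and DNA copy number was not measured. The values are RMA log2 intensities, and a difference of 1 on this scale is a doubling.

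The USF proteins, USF1 and USF2, are leucine zipper factors of the basic helix-loop-helix family that bind DNA as dimers, mainly at the E-box CACGTG, and are expressed in most cell types. They sit close to the start site of many housekeeping, metabolic and stress-responsive genes, and in B lymphocytes they have been linked to immunoglobulin and MHC gene expression. When RNA from most genes of a chromosome differs in the same direction between cell lines, the pattern is spread over genes of unrelated function, and it can be read only by setting the chromosome against the others in the same arrays.

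The stretch of 250 bases before the start site is shown for 6 members named below, because the factors that were depleted recognise a short fixed sequence that can be looked for there. All are from RefSeq, build GRCm38.p6, written 5′ to 3′ on the strand of the gene, and capitals mark CACGTG, which reads the same on both strands. Lztfl1 and Anln were lower in USFKD, Adam10 and Prss42 responded to irradiation, and Pate14 and Commd4 stood at the 2 ends of the line difference.
Lztfl1 chr9:123717626-123717875 (- strand): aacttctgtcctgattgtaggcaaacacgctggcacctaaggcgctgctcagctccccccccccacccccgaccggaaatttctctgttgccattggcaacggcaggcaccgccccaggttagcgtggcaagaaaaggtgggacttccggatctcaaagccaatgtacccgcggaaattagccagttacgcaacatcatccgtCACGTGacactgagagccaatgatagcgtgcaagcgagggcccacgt
Anln chr9:22389207-22389456 (- strand): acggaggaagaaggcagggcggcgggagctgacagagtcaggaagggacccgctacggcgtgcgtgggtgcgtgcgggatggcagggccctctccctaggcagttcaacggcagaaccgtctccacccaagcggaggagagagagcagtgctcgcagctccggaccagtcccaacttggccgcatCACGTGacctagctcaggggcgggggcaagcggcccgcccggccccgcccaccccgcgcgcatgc
Adam10 chr9:70678732-70678981 (+ strand): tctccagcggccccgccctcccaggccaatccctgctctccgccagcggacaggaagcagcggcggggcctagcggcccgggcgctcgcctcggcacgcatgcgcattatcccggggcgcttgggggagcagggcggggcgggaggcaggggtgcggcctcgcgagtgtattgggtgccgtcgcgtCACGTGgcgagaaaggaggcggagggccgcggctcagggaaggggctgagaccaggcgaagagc
Prss42 chr9:110797935-110798184 (+ strand): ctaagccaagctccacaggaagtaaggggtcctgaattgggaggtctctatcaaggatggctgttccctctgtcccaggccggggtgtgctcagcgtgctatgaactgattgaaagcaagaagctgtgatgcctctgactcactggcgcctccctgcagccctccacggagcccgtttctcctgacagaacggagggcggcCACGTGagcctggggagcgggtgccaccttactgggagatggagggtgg
Pate14 chr9:36638603-36638852 (- strand): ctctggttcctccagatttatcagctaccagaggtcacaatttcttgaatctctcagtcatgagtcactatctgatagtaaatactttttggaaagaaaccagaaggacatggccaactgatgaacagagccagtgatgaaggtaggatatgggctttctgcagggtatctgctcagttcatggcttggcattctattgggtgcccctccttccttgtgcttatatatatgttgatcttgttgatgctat
Commd4 chr9:57158300-57158549 (- strand): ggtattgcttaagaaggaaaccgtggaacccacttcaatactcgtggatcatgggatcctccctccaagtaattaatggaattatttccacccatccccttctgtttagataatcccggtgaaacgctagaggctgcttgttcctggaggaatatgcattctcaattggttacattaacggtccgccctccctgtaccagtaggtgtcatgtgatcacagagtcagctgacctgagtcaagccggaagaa

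Lztfl1 held 2 copies of the motif, which began 47 and 5 bases before the start site. The second crosses the start site, so it is cut off at the end of the stretch shown and not in capitals. Anln, Adam10 and Prss42 held 1 copy each, at 65, 64 and 49 bases before it. Pate14, with the lowest mean difference of the named members, and Commd4, with the highest, held none in this window. Of 571 protein-coding genes with a member row, 503 had a promoter of 300 bases (250 before and 50 after the start) in the RefSeq set, and 54 of these (10.7%) held CACGTG. On the other autosomes the share was 10.5% (802 of 7612), and over all 27025 promoters it was 7.24%. Among the chromosome 9 genes that lay below Control without overlap of the groups at all 3 times, 20 of 136 promoters (14.7%) held the motif, against 83 of 728 (11.4%) among the genes of the other autosomes with the same pattern. A match is a string of letters, and binding was not measured.

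Before the members are described, the state of the arrays is given. Array medians over all rows ran from 4.38 to 4.46 in untreated and 24 hr arrays and from 4.54 to 4.65 at 7 days. A pair of USFKD arrays resembled each other more than their own groups: untreated replicate 1 correlated best with 24 hr replicate 2 (r = 0.997 over rows above the level). The other 10 untreated and 24 hr arrays each correlated best with an array of their own group. Stag1, a cohesin subunit, read 9.31, 10.18 and 10.27 in untreated USFKD and 10.12, 9.54 and 9.44 at 24 hr, so that replicate 1 of each group lay nearer the other group. The labels were kept, and whether these arrays carry the right ones was not tested. In RNA the knockdown was visible for Usf2 (USFKD minus Control −2.15 untreated, −1.95 at 24 hr and −3.39 at 7 days on 1 row, and −1.32, −1.26 and −1.98 on a second) but not for Usf1 (−0.07, −0.10 and −0.11). The Usf1 row was dim, with group means from 5.16 to 5.28, a level at which a fall may not show. By Western blot the paper reported that both proteins were reduced in USFKD. Of the B cell markers, 5 of 5 measured lay above the level (array means 11.6 to 12.4), while 0 of 5 T cell and 0 of 5 myeloid markers did and 1 of 3 fibroblast markers did.

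Chromosome 9 transcripts were lower in USFKD than in Control at each time, and their median was the lowest of the 19 autosomes throughout. The median log2 difference over the 1364 members was −0.07 in untreated cells, −0.11 at 24 hr and −0.12 at 7 days. The other autosomes had medians of 0.05, 0.03 and 0.01. Relative to them, chromosome 9 lay at −0.11, −0.15 and −0.13. Without USFKD untreated replicate 1 and USFKD 24 hr replicate 2 the first 2 of these values were −0.12 and −0.14. Of the members, 58.4% lay below 0 in untreated cells, 67.7% at 24 hr and 66.4% at 7 days, against 43.2%, 44.5% and 49.3% of the other autosomes' rows. Both quartiles were displaced, the lower one by more. They were −0.37 and 0.12 in untreated cells, where those of the other autosomes were −0.16 and 0.25.

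Chromosome 9 was not alone at the low end. Chromosome 16 followed it, at −0.10, −0.12 and −0.09 relative to the other autosomes over 922 rows. The 1489 rows of the X chromosome lay lower at −0.18 and −0.19 in untreated and 7 day cells and at −0.12 at 24 hr. Chromosome 10 lay at −0.06, −0.10 and −0.07. At the other end stood chromosome 11 (0.12, 0.16 and 0.12) and chromosome 12 (0.13, 0.15 and 0.13). Among protein-coding rows chromosome 16 lay at −0.28, −0.26 and −0.19, against −0.29, −0.29 and −0.19 for chromosome 9. They were close at each time, with chromosome 16 the lower at 7 days. Protein-coding rows of the X chromosome lay lower than both, at −0.49, −0.53 and −0.36. The label of a dosage-like loss therefore rests on RNA alone, and a shift of similar size and direction was present on chromosome 16.

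**Figure D1:**
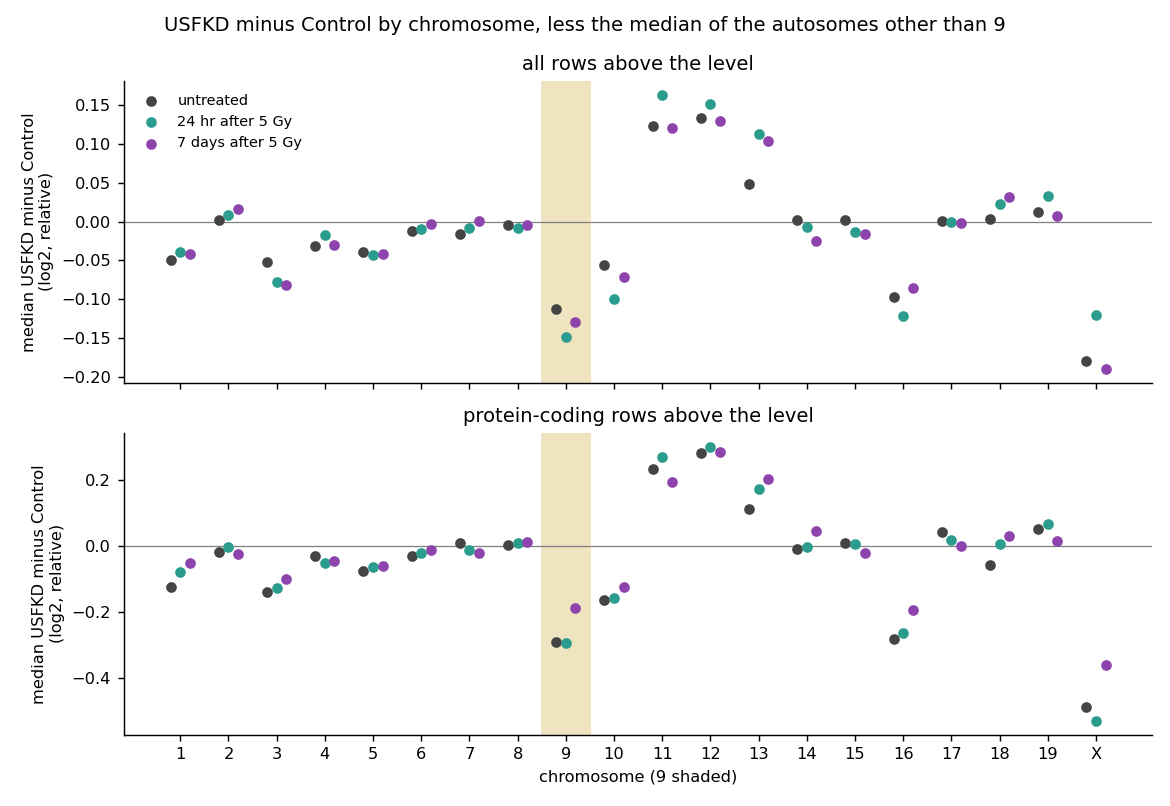
Median log2 difference between USFKD and Control for each chromosome (x axis), relative to the autosomes other than chromosome 9 (y axis), at each of the 3 times, over all rows above the level (top) and the protein-coding ones (bottom). In the top panel chromosome 9 lies at −0.11, −0.15 and −0.13, the lowest autosome each time, with chromosome 16 next and chromosomes 11 and 12 at the top.

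Each array carried the difference on its own. The value of an array was the median over members of its deviation from the row's mean over 18 arrays, minus the same median over the other autosomes. In untreated cells this value was 0.06 ± 0.01 (SD, n = 3) in Control and −0.08 ± 0.002 in USFKD. At 24 hr it was 0.09 ± 0.02 and −0.07 ± 0.01, and at 7 days 0.07 ± 0.01 and −0.08 ± 0.01. All 9 Control arrays lay above 0 and all 9 USFKD arrays below 0, so the groups did not overlap at any time. The same split held for the rows of chromosomes 16, 10 and X, so it is not particular to chromosome 9. In untreated cells their means were 0.03, 0.02 and 0.13 in Control and −0.07, −0.06 and −0.10 in USFKD. Because the deviations are taken from the mean of both lines, a value above 0 in Control and one below 0 in USFKD are 2 sides of the same difference.

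**Figure D2:**
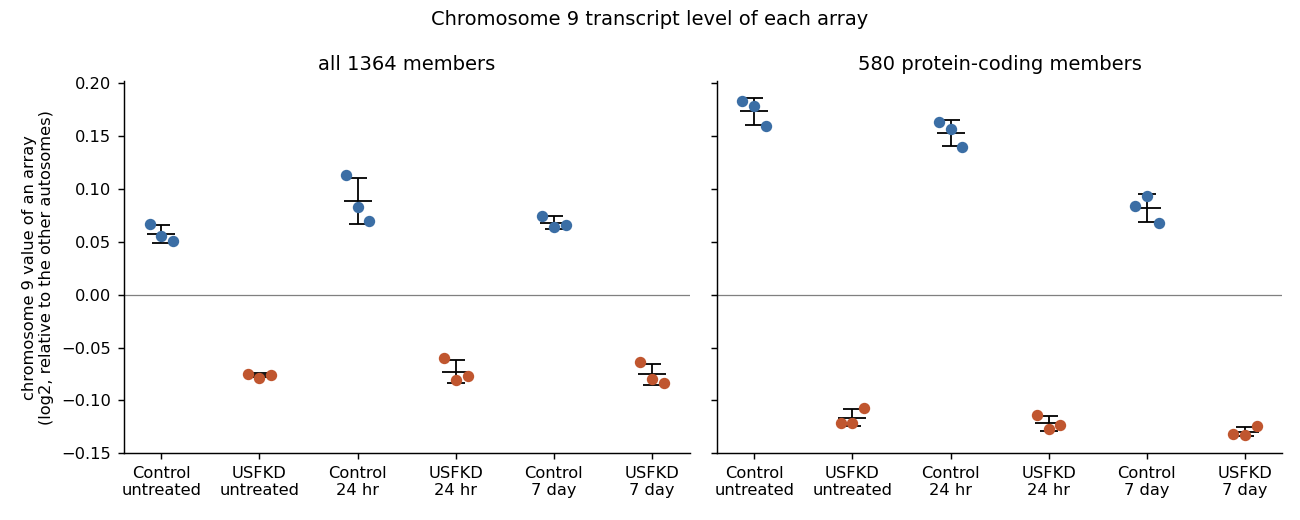
Chromosome 9 value of each array (y axis, log2 units relative to the other autosomes) by group (x axis), with points for arrays and bars for the mean ± SD of 3, for all members (left) and for protein-coding members (right). The 9 Control arrays lie above 0 and the 9 USFKD arrays below 0 in both sets.

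The shift was larger in protein-coding transcripts. Of the 1364 members, 756 carried 1 gene symbol, 48 several and 560 none. All 756 matched the RefSeq table, 753 of them to chromosome 9, and 580 were protein-coding rows of 571 genes. The median of these 580 was −0.31 in untreated cells, −0.26 at 24 hr and −0.15 at 7 days, or 0.808, 0.838 and 0.902 of the Control level. Relative to the protein-coding rows of the other autosomes it was −0.29, −0.29 and −0.19. The remaining 784 members, which were not protein-coding or not named, had medians of 0.04, −0.04 and −0.11. In untreated cells 77.4% of the protein-coding members lay below 0, against 52.2% on the other autosomes. At 24 hr the shares were 80.2% and 44.1%, and at 7 days 68.8% and 45.2%. Chromosome 16 showed a like split in untreated cells. Its protein-coding rows had a median of −0.30, with 76.5% below 0, and its other rows a median of 0.05. In bulk samples, fewer cells that express a gene and less RNA per cell cannot be told apart.

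Level and difference went together. The 190 dimmest members, with mean values from 4.66 to 5, had medians of 0.03, −0.04 and −0.09 at the 3 times, close to those of equally dim rows elsewhere (0.05, −0.02 and −0.05). The 214 members between 8 and 10 had medians of −0.34, −0.26 and −0.22, where rows of the other autosomes at that level lay at −0.02, 0.05 and 0.03. The 286 members above 10 had medians of −0.26, −0.19 and −0.21, against −0.01, 0.06 and 0.01. Among protein-coding members above 10 the medians reached −0.51, −0.37 and −0.24 (148 rows). The share of protein-coding rows was 21.1% in the dimmest bin and 67.3% between 8 and 10, and was 51.8% above 10. At the level itself, the rows just below it were Cgnl1 (4.66), Lncbate3 (4.66) and Myl3 (4.66), with untreated differences of 0.004, −0.11 and 0.11. The 3 members just above it carried no gene symbol and had untreated differences of −0.16, −0.04 and 0.07.

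**Figure D3:**
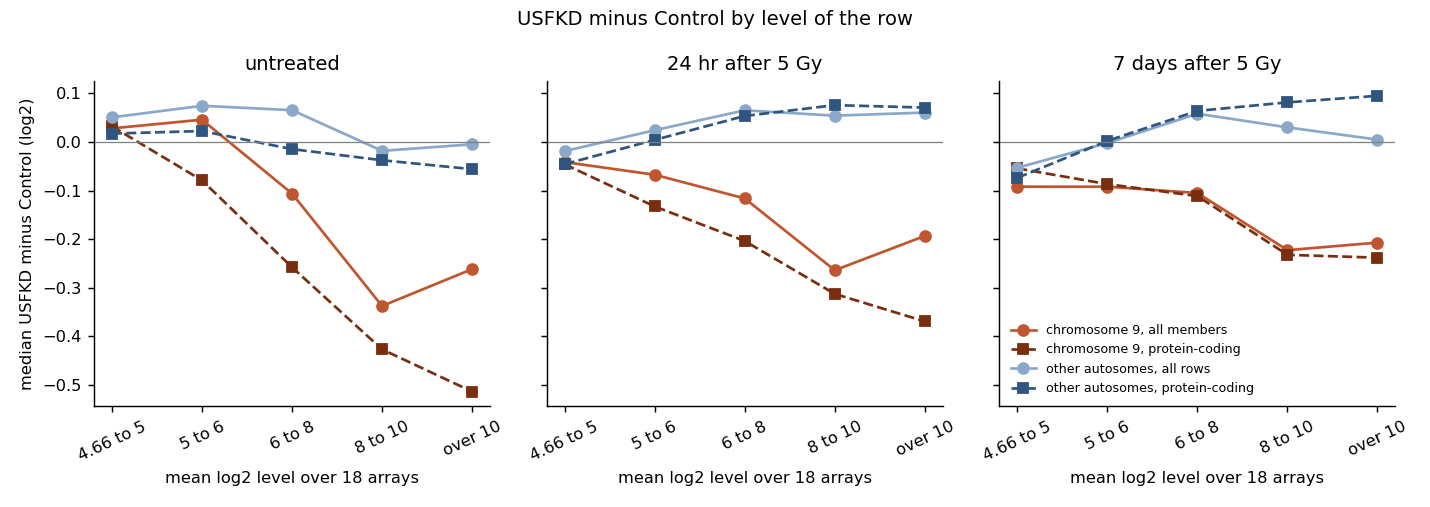
Median log2 difference between USFKD and Control (y axis) by bins of the mean log2 level over 18 arrays (x axis), for chromosome 9 members (orange) and rows of the other autosomes (blue), with dashed lines for protein-coding rows, in 1 panel a time. The 2 sets of all rows lie close together in the dimmest bin (0.03 and 0.05 in untreated cells) and apart between 8 and 10 (−0.34 and −0.02).

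Along the identifier order the lower values ran from end to end. Identifiers follow the plus strand first (688 members, 99.6% of those with a known strand on plus) and then the minus strand (660 members, 0% on plus), with a tail of 16. Gene order in the reference ran with the identifiers, apart from 4 steps back among 753 named members. Of 27 windows of 50 consecutive members, 25 lay below the median of the other autosomes in untreated cells, 27 at 24 hr and 26 at 7 days. Of 503 windows of the same size on the other autosomes, 52.5%, 49.1% and 48.9% did. The 688 plus-strand members had medians of −0.06, −0.12 and −0.13 and the 660 minus-strand members −0.07, −0.11 and −0.12.

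Windows differed in depth. In untreated cells the lowest was the minus-strand window from Acad8, a mitochondrial acyl-CoA dehydrogenase, to Olfr936, an odorant receptor gene, at −0.25. The highest was the plus-strand window from Vps13c to Gm23567 at 0.07. At 7 days the lowest was the plus-strand window from Tle3, a transcriptional corepressor, to Rps27l, a ribosomal protein paralogue, at −0.26, and the highest the window from Siae to Sik3 at 0.02. Among protein-coding members alone, the minus-strand window from Gm20199 to Zfp609 was lowest in untreated cells (−0.58) and at 24 hr (−0.39) and lay at −0.29 at 7 days, when the plus-strand window from Ccdc12 to 5830454E08Rik was lowest (−0.35). Protein-coding medians were above 0 at 7 days in the window from Vps13c to Gm23567 (0.17), in that from Trip4 to Tcf12 (0.05) and in that from Gm25045 to Phip (0.02). In windows of 25 protein-coding members, 23 of 23 lay below the protein-coding median of the other autosomes at each time.

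**Figure D4:**
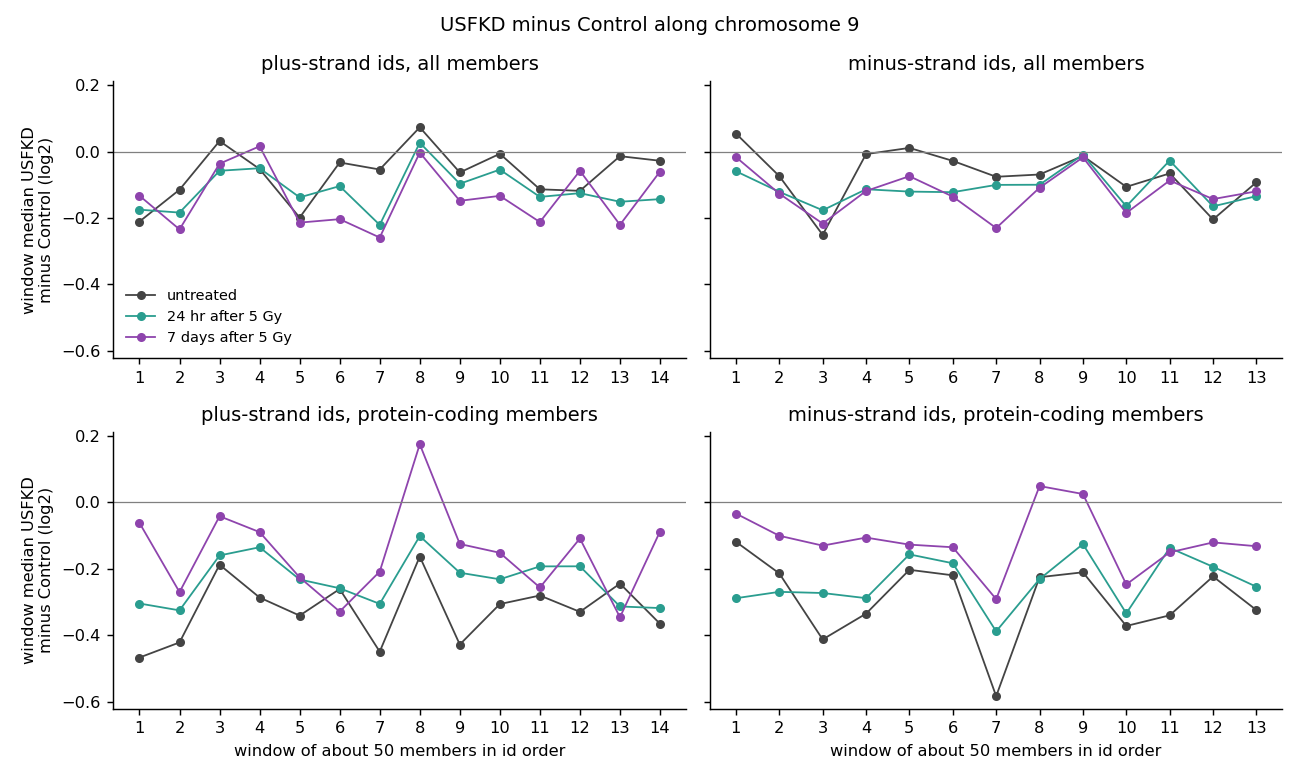
Median log2 difference between USFKD and Control (y axis) in consecutive windows of 50 chromosome 9 members in identifier order (x axis, plus-strand block left, minus-strand block right), at each time, for all members (top) and the protein-coding members of the same windows (bottom), with a line at 0. The top panels run from −0.26 to 0.07, and the lowest protein-coding point is −0.58 in minus-strand window 7.

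Member by member, the same direction recurred across times, which share their arrays with no other time but belong to the same 2 lines. Of the 1364 members, 538 (39.4%) were lower in USFKD at all 3 times and 188 (13.8%) higher, where the other autosomes had 22.0% lower and 30.1% higher. Among protein-coding members 333 (57.4%) were lower and 64 (11.03%) higher. USFKD lay below Control without overlap of the groups at all 3 times in 195 members (14.3%), against 2.67% of all rows and 5.15% of the rows of the other autosomes above the level. It lay above without overlap in 26 members (1.91%), against 2.69% of all rows and 7.15% of the rows of the other autosomes above the level. A row was called where the fold change exceeded 1.5 with an adjusted p below 0.05. Called members numbered 18 higher and 183 lower in untreated cells, where 1.88% of all rows were called higher and 2.47% lower. Most rows of the array are dim, and of the other autosomes' rows above the level 4.62% were called higher and 4.76% lower, against 1.32% and 13.4% of members. At 24 hr there were 15 members higher (1.10%) and 101 lower (7.41%), where all rows gave 1.55% and 1.7% and the other autosomes 3.94% and 3.08%. At 7 days there were 30 higher (2.20%) and 160 lower (11.7%), where all rows gave 2.97% and 3.62% and the other autosomes 6.73% and 6.57%. These counts come from the contrast that chose the chromosome and are a description.

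Pate14, which codes for a small secreted protein of the prostate and testis expressed family, had the lowest mean difference of the members without overlap. Its log2 values were 9.37, 9.14 and 8.99 in untreated Control and 7.04, 6.92 and 7.09 in untreated USFKD. At 24 hr they were 10.23, 9.87 and 9.73 against 7.10, 6.89 and 7.00, and at 7 days 9.45, 9.98 and 9.72 against 6.97, 6.50 and 6.67. The highest USFKD array lay below the lowest Control array by a wide margin at each time, and the differences were −2.15, −2.95 and −3.0 (SE 0.16).

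Aldh1a2, the retinaldehyde dehydrogenase that makes retinoic acid, read 9.57, 10.02 and 10.05 in untreated Control and 7.66, 7.68 and 7.57 in untreated USFKD. It was lower in both lines at 7 days, at 8.29, 7.99 and 8.11 in Control and 6.50, 6.76 and 6.53 in USFKD. No USFKD array reached a Control array of its time, and the difference between the lines was −2.24, −1.97 and −1.53 (SE 0.13). Lztfl1, a leucine zipper protein of ciliary membrane traffic whose promoter holds 2 E-boxes, read 10.17, 10.10 and 10.08 in untreated Control against 8.37, 8.02 and 8.03 in USFKD. Its groups were as far apart at the later times, with differences of −1.98, −2.02 and −1.91 (SE 0.18). The same pattern without overlap was seen for Cmtm7, a membrane protein of the B cell receptor complex (−1.23, −1.22 and −1.60), for Scamp5, a secretory carrier membrane protein (−1.50, −1.12 and −1.40), and for Dipk2a, a secretory pathway protein (−1.40, −1.15 and −1.02).

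Few members lay above Control without overlap at all 3 times, 26 against 195 below it. Commd4, which codes for a COMM domain protein, read 9.94, 9.81 and 9.81 in untreated Control and 11.84, 11.69 and 11.44 in untreated USFKD. At 24 hr the values were 9.98, 10.05 and 9.56 against 11.80, 11.94 and 11.79, and at 7 days 8.91, 8.99 and 8.92 against 12.37, 11.82 and 12.19. USFKD lay above Control without overlap throughout, by 1.81, 1.98 and 3.19 (SE 0.15). Eepd1, an endonuclease/exonuclease/phosphatase family protein that acts in replication fork repair, was higher by 1.18, 1.22 and 2.00 (SE 0.09). Smaller differences in the same direction were held by Ddx6, an RNA helicase of mRNA decay bodies (0.57, 0.55 and 1.21), and by Thsd4, an extracellular matrix protein (0.53, 0.61 and 1.03). For 1810046K07Rik (group means 3.91, 3.97 and 4.41 in Control and 5.16, 5.15 and 6.56 in USFKD) and Tmem202 (4.635, 4.655 and 4.592 against 5.29, 5.36 and 5.87) the Control means lay below the level of 4.66. These rows passed it through their USFKD arrays, so they could be members only by being higher there.

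**Figure D5:**
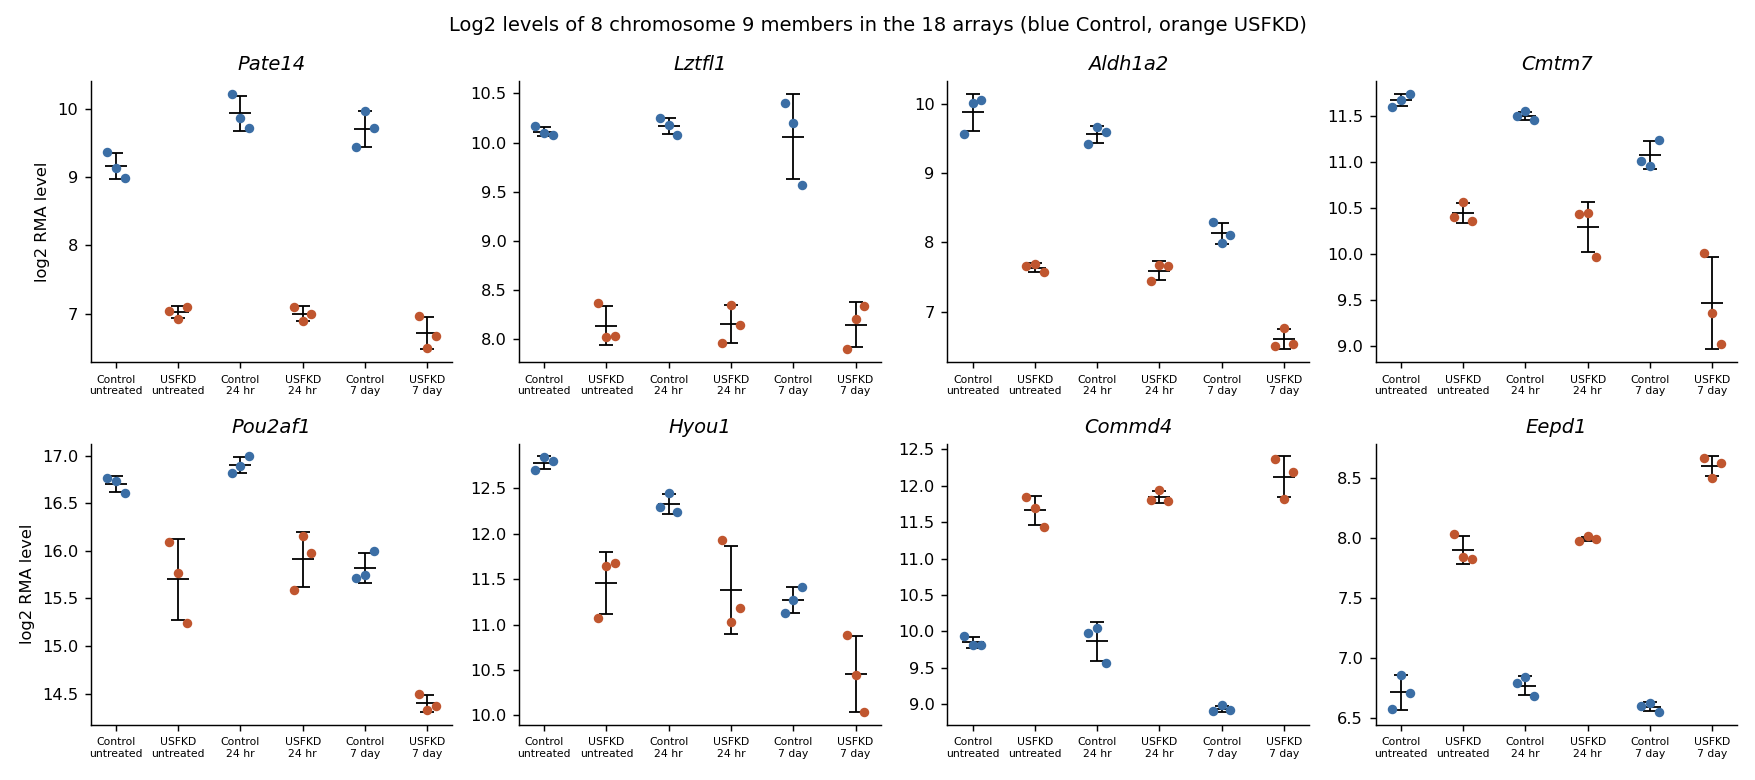
Log2 value on each array (y axis, 1 panel a gene) for 8 chromosome 9 members in the 6 groups (x axis), with Control in blue, USFKD in orange and bars for the mean ± SD of 3 arrays. USFKD lies below Control for Pate14, Lztfl1, Aldh1a2, Cmtm7, Pou2af1 and Hyou1, and above it for Commd4 and Eepd1, at each time.

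Genes were also grouped by function, in lists written from general knowledge of mouse genes on chromosome 9. Their counts are to be read against all 580 protein-coding members, of which 27.4% were called lower in untreated cells, 14.3% at 24 hr and 15.5% at 7 days, and 1.38%, 1.03% and 2.93% higher. The list with the lowest median in untreated cells was that of the endoplasmic reticulum, protein folding and secretion, with 18 members (median −0.63 in untreated cells, −0.31 at 24 hr, −0.43 at 7 days), of which 9, 2 and 5 were called lower and 0, 0 and 2 higher. Hyou1, a chaperone of the endoplasmic reticulum, read 12.70, 12.84 and 12.80 in untreated Control and 11.07, 11.64 and 11.68 in untreated USFKD, and its differences were −1.32, −0.95 and −0.81 (SE 0.23). Trappc4, a subunit of a vesicle tethering complex, was called lower at 7 days (−1.38, SE 0.29) and not in untreated cells (−0.85) or at 24 hr (−0.56). The 2 members called higher at 7 days were Ddx6, which is no secretory protein, and Vps11 (0.72), a subunit of endosomal tethering complexes. The kinase and growth factor list (18 members) had medians of −0.57, −0.33 and −0.14, with 9, 1 and 2 called lower. Map2k1, the kinase that activates ERK, read 10.11, 10.10 and 10.07 in untreated Control and 9.31, 9.42 and 9.26 in USFKD, and differed by −0.76, −0.63 and −0.66 (SE 0.07).

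Of the 28 B cell and lymphocyte members, 9, 3 and 4 were called lower and 0, 1 and 1 higher, with medians of −0.42, −0.27 and −0.14. Pou2af1, the B cell coactivator of octamer-binding factors, was among the brightest members, at 16.76, 16.73 and 16.61 in untreated Control against 16.09, 15.77 and 15.24 in USFKD. The groups did not overlap at any time, and the differences were −1.0, −0.99 and −1.42 (SE 0.18). Tcf12, an E protein of lymphocyte development, differed by −0.80, −0.56 and −0.84, and the 2 members called higher were Tlr9 at 24 hr (0.74) and Myo1e, a membrane-binding myosin, at 7 days (1.10). The 16 DNA damage signalling and repair members had medians of −0.29, −0.37 and −0.08, with 3 called lower each time and 1 higher at 7 days. Usp28, a deubiquitinase of the damage response, differed by −0.95, −1.09 and −1.36 (SE 0.10). Atr, the kinase that senses stalled replication, was called lower at 7 days (−0.80) and not in untreated cells (−0.30) or at 24 hr (−0.38), and Pml, the scaffold of nuclear bodies, was called higher at 7 days (0.82). H2ax, the histone variant phosphorylated at breaks, differed by −0.98 in untreated cells and was not called at 24 hr (−0.42) or 7 days (−0.48).

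Medians were below 0 at all 3 times in the next 4 lists, and the last 2 hold few rows above the level. The 13 cell cycle and mitosis members had medians of −0.46, −0.44 and −0.25, with 5, 3 and 3 called lower. The 14 chromatin regulators had medians of −0.17, −0.18 and −0.03, with 2, 1 and 1 called lower and 1, 0 and 0 higher, and Smarca4, the ATPase of SWI/SNF remodelling complexes, accounted for 1 at each time (−0.82, −0.95 and −0.73). The 19 mitochondrial energy members had medians of −0.33, −0.22 and −0.28, with 4, 0 and 5 called lower, among them Cox5a of cytochrome c oxidase (−0.68, −0.49 and −1.15). Of 12 metabolism members 4, 3 and 3 were called lower (medians −0.31, −0.26 and −0.19), among them Gclc, the catalytic subunit of the enzyme that starts glutathione synthesis (−0.86, −0.72 and −0.56), which stayed under the fold limit at 7 days. The 3 cytosolic ribosomal rows had medians of 0.00, −0.05 and −0.55, and the only call, at 2 times, was Rps27l (−0.62, −0.45 and −0.80). Of the caspase and metalloproteinase list only 2 of 13 genes were above the level, with medians of 0.16, −0.26 and 0.07 and 1 call, Casp1 at 24 hr (−0.62).

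Irradiation within a line was not used to choose the chromosome, and there the median over all members lay within 0.02 of that of the other autosomes. At 24 hr the median change of the members was 0.06 in Control (other autosomes 0.04) and 0.07 in USFKD (0.06). At 7 days it was 0.15 in Control (0.15) and 0.11 in USFKD (0.11). The differences from the other autosomes were 0.02, 0.01, 0.0002 and −0.002. In exact two-sided permutation tests of the array values, 3 arrays against 3, the smallest p that can be had is 0.1. At 24 hr the changes were 0.03 in Control (exact permutation p = 0.1, adjusted over 4 tests 0.4) and 0.004 in USFKD (exact p = 0.9, adjusted 1). At 7 days they were 0.01 (exact p = 0.3, adjusted 0.6) and 0.0009 (exact p = 1, adjusted 1). For protein-coding members the Control value was 0.17 ± 0.01 in untreated cells, 0.15 ± 0.01 at 24 hr and 0.08 ± 0.01 at 7 days (SD, n = 3). The 7 day arrays lay below the untreated ones without overlap (change −0.09, exact permutation p = 0.1, adjusted 0.2). In USFKD the corresponding values were −0.12 ± 0.01, −0.12 ± 0.01 and −0.13 ± 0.005. Their changes from untreated were −0.01 at both times (exact permutation p = 0.5 and 0.1, adjusted 0.5 and 0.2).

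Few members changed by 24 hr. In Control, 62 members (4.55%) rose and 13 (0.953%) fell by limma with Benjamini-Hochberg adjustment, where 1.69% of all rows rose and 0.246% fell and 3.83% and 0.519% of the other autosomes' rows above the level did. Without Control 24 hr replicate 1 there were 19 calls in place of 75, without Control untreated replicate 2 or 3 there were 29 or 34, and without Control 24 hr replicate 3 there were 43. Same-numbered arrays of these 2 groups deviated together (r = 0.345, 0.172 and 0.174), and a fit of these 6 arrays with the replicate number as a block gave 28 calls. Kmt2a, a histone H3 lysine methyltransferase, read 8.69, 8.10 and 7.81 in untreated Control and 10.06, 9.21 and 9.54 at 24 hr. The groups did not overlap, and the rise was 1.40 (SE 0.22, limma adjusted p = 0.00362). Dalrd3, which takes part in tRNA methylation, rose by 1.22 (limma adjusted p = 0.00512). Tmem42, a transmembrane protein, read 7.56, 7.69 and 7.73 before and 6.89, 6.94 and 6.87 after irradiation. It fell without overlap (−0.76, limma adjusted p = 0.00599). Dpagt1, the enzyme that starts N-glycan synthesis (−0.98), Stag1 (−0.90), and Prkar2a, a regulatory subunit of protein kinase A (−0.66), fell too, but these calls were lost when some Control arrays were left out.

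In USFKD at 24 hr no member and no row at all was called by limma (0% of all rows). At an unadjusted p under 0.05 there were 141 members (10.3%), against 11.6% of the other autosomes' rows, and the smallest adjusted p among members was 0.198. Without USFKD 24 hr replicate 2, the array that resembled an untreated one, 7 members were called higher. In that fit 391 of all 72688 rows were called higher and 5 lower. Without that array and USFKD untreated replicate 1, 0 members and 0 rows were called. Without replicate 1 of both groups 0 members and 6 rows were called, with 178 members at an unadjusted p under 0.05. The count of 0 rests on the labels as given. The difference in response between the lines at 24 hr gave 0 calls as well (0% of all rows), with 146 members at an unadjusted p under 0.05.

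By 7 days many members had changed in both lines. In Control 315 members (23.1%) rose and 172 (12.6%) fell, where 12.2% of all rows rose and 4.86% fell, and 21.7% and 10.9% of the other autosomes' rows did. In USFKD 225 (16.5%) rose and 97 (7.11%) fell (all rows 7.75% and 2.74%, other autosomes 15.3% and 6.17%). Among protein-coding members 131 (22.6%) fell and 35 (6.03%) rose in Control, against 19.1% and 5.84% of protein-coding rows of the other autosomes. In USFKD 71 (12.2%) fell and 36 (6.21%) rose, against 11.3% and 5.37%. The protein-coding medians were −0.19 in Control (other autosomes −0.12) and −0.05 in USFKD (−0.04). Both lines' 7 day contrasts are made against their own untreated arrays and share none.

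Prss42, a trypsin-like serine protease with an E-box 49 bases before its start, had the largest fall among the named members in each line. It read 12.06, 12.23 and 11.80 in untreated Control and 8.85, 8.14 and 7.86 at 7 days, a change of −3.74 (SE 0.21, limma adjusted p = 4.87e-08). In USFKD it started lower, at 10.75, 10.70 and 10.70, and reached 8.17, 8.24 and 8.01, a change of −2.58 (limma adjusted p = 3.86e-06). The lines were apart by −1.31 before irradiation and by −0.14 at 7 days. The difference in response was 1.17 (SE 0.30) and missed the threshold (limma adjusted p = 0.0548).

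Tlr9, the endosomal receptor for unmethylated CpG DNA in B cells, read 10.77, 10.69 and 10.50 in untreated Control and 8.10, 8.31 and 8.69 at 7 days. In USFKD it went from 11.08, 11.04 and 10.67 to 8.92, 8.69 and 8.47. Untreated and 7 day arrays did not overlap in either line, and the changes were −2.29 and −2.24 (SE 0.16, limma adjusted p = 3.11e-07 and 1.99e-06). Pou2af1 fell in both lines (−0.88 in Control and −1.3 in USFKD, limma adjusted p = 0.00160 and 0.000162), and so did Csk, a kinase that restrains Src family kinases (−0.78 and −0.84). Of the 28 B cell and lymphocyte members 9 fell and 2 rose in Control, and 4 fell and 1 rose in USFKD. Birc3, an inhibitor of apoptosis protein of the NF-kB pathway, rose in both lines (1.32 and 0.87).

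Of the 13 cell cycle members 9 fell in Control and 8 in USFKD, and none was called higher. Their medians were −0.86 and −0.67. Of all protein-coding members 22.6% and 12.2% fell, with medians of −0.19 and −0.05. In Control and USFKD in turn, the changes were −1.3 and −0.88 for Zw10, a kinetochore checkpoint protein, −1.07 and −0.9 for Kif15, a spindle motor, and −1.02 and −1.06 for Spc24, a kinetochore subunit. Anln, the cytokinesis scaffold with an E-box 65 bases before its start, read 9.95, 9.84 and 9.83 in untreated Control and 9.09, 9.02 and 9.07 at 7 days. It fell without overlap in Control (−0.82) and also fell in USFKD (−0.76, SE 0.09, limma adjusted p = 1.24e-05 and 7.55e-05). Cdc25a, a phosphatase that activates cyclin-dependent kinases, fell in Control (−0.86) and was not called in USFKD. For the difference in response at 7 days 0 of the 13 cell cycle members were called.

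Of the DNA damage members 5 fell and 2 rose in Control, and 6 fell and 1 rose in USFKD. Neil1, a glycosylase of base excision repair, read 12.07, 12.20 and 11.92 in untreated Control and 13.63, 13.63 and 13.93 at 7 days, and in USFKD went from 12.44, 11.61 and 11.31 to 14.13, 13.85 and 14.37. It rose without overlap by 1.66 and 2.33 (SE 0.27, limma adjusted p = 0.000255 and 4.57e-05). Usp28 rose in Control by 0.70 (limma adjusted p = 8.72e-05) while the change of 0.30 in USFKD missed the threshold (limma adjusted p = 0.0548). Its difference in response, −0.41, was not called (limma adjusted p = 0.1495). Chek1, the checkpoint kinase downstream of Atr, fell in both lines (−0.85 and −0.66), as did Cep164, a centriolar appendage protein (−0.86 and −0.7).

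In the metabolic and secretory lists most members were not called. Gclc changed by −1.21 in Control and −0.91 in USFKD (SE 0.09, limma adjusted p = 3.07e-07 and 9.89e-06). Pkm, a pyruvate kinase, changed by −1.39 and −1.64, and Sorl1, a sorting receptor, by −1.71 and −1.41. In each line 4 of 12 metabolism members fell. In the endoplasmic reticulum and secretion list 5 of 18 fell in Control and 4 in USFKD, none rising, with Hyou1 at −1.51 and −1.0 and Dpagt1 at −1.79 and −1.45. Of the mitochondrial members 7 of 19 fell and 2 rose in Control, and 3 fell in USFKD. Uqcrc1, a subunit of respiratory complex III, fell in both (−1.29 and −1.38). Of the kinase list 7 of 18 fell in Control and 2 in USFKD, and of the 14 chromatin regulators 4 fell and 1 rose in Control and 3 fell and 1 rose in USFKD. Dnmt1, the maintenance DNA methyltransferase, fell in both lines (−1.18 and −1.14). Aldh1a2 changed by −1.75 and −1.04 (limma adjusted p = 3.80e-07 and 8.43e-05).

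Among the largest rises at 7 days were rows of short non-coding RNA, although in USFKD Neil1 rose by more than either named here. They included n-R5s88, a 5S ribosomal RNA copy (3.98 in Control, 1.87 in USFKD), and Snora62, a box H/ACA small nucleolar RNA (3.36 and 2.22). Such RNAs have near-identical copies elsewhere, so their signal may not come from chromosome 9 alone. Rpsa, the ribosomal protein gene that hosts Snora62, rose by 0.82 in Control and was not called in USFKD (0.27). Its difference in response, −0.55, was not called (limma adjusted p = 0.125). Casp4, an inflammatory caspase, rose by 1.94 in Control and 1.43 in USFKD (SE 0.39, limma adjusted p = 0.00148 and 0.0189).

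The response at 7 days differed between the lines in 72 members: 48 (3.52%) responded more positively in USFKD and 24 (1.76%) more negatively, where 1.1% and 0.936% of all rows were called and 2.46% and 1.63% of the other autosomes' rows. Among protein-coding members 41 (7.07%) were of the first kind and 2 (0.345%) of the second, and the protein-coding rows of the other autosomes leaned the same way (4.59% and 0.787%). The count was 32 without Control untreated replicate 2 and 42 without USFKD 7 day replicate 2. The median difference in response over protein-coding members was 0.13, against 0.08 on the other autosomes. These values are built from the line differences that chose the chromosome, so a lean of the members as a set is a description.

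Adam10, the protease that sheds CD23 and cleaves Notch, showed it most clearly. In Control it read 12.82, 12.89 and 12.76 untreated and 12.17, 12.19 and 11.87 at 7 days. In USFKD it read 11.90, 11.65 and 11.90 untreated and 12.18, 12.33 and 12.44 at 7 days. The lines moved in opposite directions with no overlap between times in either, by −0.75 and 0.50, though the change in USFKD stayed under the fold limit. The difference in response was 1.25 (SE 0.16, limma adjusted p = 0.00216), and the line difference went from −1.01 untreated through −0.60 at 24 hr to 0.24 at 7 days.

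Commd4 fell in Control (−0.91), while the change in USFKD was 0.47 and under the fold limit, a difference in response of 1.38 (SE 0.21, limma adjusted p = 0.00415). Tmem42 fell in Control (−1.43), while the change in USFKD was −0.18, a difference of 1.24 (SE 0.18, limma adjusted p = 0.00357). For Nicn1, a protein of the tubulin polyglutamylase complex, Control read 10.49, 10.55 and 10.09 untreated and 10.51, 10.58 and 10.46 at 7 days, and USFKD went from 10.23, 9.68 and 9.57 to 10.92, 11.27 and 11.34. It rose in USFKD by 1.35, and the difference in response was 1.21 (SE 0.25, limma adjusted p = 0.0235). Others with a more positive response in USFKD were Tgfbr2, a TGF-beta receptor (0.84), Rhoa, a cytoskeletal GTPase (0.69), Myo1e (0.92), Tirap, an adaptor of Toll-like receptors (0.81), Slc25a20, the mitochondrial carnitine carrier (0.83), Lars2, a mitochondrial leucyl-tRNA synthetase (0.83), and Pml (0.68). By list, 5 of 28 B cell and lymphocyte members, 3 of 18 kinase members, 2 of 18 secretory members, 2 of 19 mitochondrial members and 1 of 16 DNA damage members were among them, and no list had a member with a more negative response.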

How the data were processed

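RNA of 18 cultures was hybridised to Affymetrix Mouse Transcriptome 1.0 arrays. The authors deposited log2 values, made by RMA (background adjustment, quantile normalization and probe summary) with Affymetrix Expression Console per the submitters' notes, versions not given in the sources used here. Some values exceed what a 16-bit scanner can return on the log2 scale, so differences are given on the deposited scale. Nothing was rescaled. The number of arrays limits the precision.

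Groups and replicate numbers came from the sample labels. The methods call the replicates independent, and p-values measure only the spread between these samples. All 72688 rows entered 1 limma 3.58.1 fit (R 4.3.3, with package data.table, version 1.17.8) in which the 6 groups had a mean each, which is the methods' model of line, treatment and time (12 residual degrees of freedom, prior 2.65). A row was called at a Benjamini-Hochberg adjusted p under 0.05 over all rows and a fold change over 1.5. The fit was tested on simulated arrays. Chromosome medians, windows, promoter matches and exact permutation tests were computed in python 3.11.15 (numpy 2.4.6, pandas 2.3.3, scipy 1.17.1), and figures in matplotlib 3.10.9.

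Gene symbols came from the platform annotation and were matched to RefSeq (GRCm38.p6). The build behind the row identifiers is not given in the sources used here, so no coordinate of a row is printed. Members, gene lists and tests were chosen with earlier results of these data known. Named are members with 1 symbol: the 6 lowest and 6 highest line differences without overlap at any time, up to 4 members of each list with the largest differences, up to 5 called members each way for each irradiation contrast and difference in response, the rows next to the level, and Usf1, Usf2 and cell type markers. Members named beyond this as examples of a list were chosen after their values were seen, as was the split into protein-coding and other rows. The lists cover DNA damage, B cell and lymphocyte genes, chromatin, cell cycle, ribosomal proteins, mitochondrial energy, endoplasmic reticulum and secretion, kinases, metabolism, and caspases with metalloproteinases. Alternatives were other levels, a mean, the brightest row of a gene, other reference chromosomes, cyclic loess, array weights, a variance trend, only the arrays compared, a replicate block, other window sizes, and leaving out arrays.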

Additional observations from a re-analysis of the deposited data

Results flagged for a closer look

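In 10 named members the response at 7 days differed between the lines by the interaction contrast of limma with Benjamini-Hochberg adjustment. The response was more positive in USFKD for Commd4 (1.38, adjusted p = 0.00415), Adam10 (1.25, adjusted p = 0.00216), Tmem42 (1.24, adjusted p = 0.00357), Nicn1 (1.21, adjusted p = 0.0235) and the predicted gene Gm5612 (1.13, adjusted p = 0.0187). It was more negative for n-R5s88 (−2.11, adjusted p = 0.0442), Gm23136 (−1.88, adjusted p = 0.0193), Gm22866 (−1.71, adjusted p = 0.0442), Gm22571 (−1.66, adjusted p = 0.0225) and n-R5s86 (−1.44, adjusted p = 0.0176). Over 22 alternatives the calls of Commd4, Adam10 and Tmem42 were kept in 22, with a highest adjusted p of 0.0154. Those of Gm5612 and n-R5s86 were lost in 1, of Gm23136 in 2, of Nicn1 in 5 and of Gm22571 in 6. The calls of Gm22866 and n-R5s88 were lost in 16 and 17, with adjusted p up to 0.107 and 0.0937. n-R5s88 read 7.67, 8.93 and 8.83 in untreated Control, where 1 array lay more than 1 log2 unit below the other 2.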

How the results depend on the processing

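Chromosome 9 lay below the other autosomes at all 3 times under every alternative run. Its relative median (untreated, 24 hr, 7 days) was −0.0255, −0.0405 and −0.0458 with no level filter and −0.23, −0.23 and −0.20 above a level of 6. As a mean it was −0.17, −0.19 and −0.17, with the brightest row of each gene −0.22, −0.22 and −0.14, and without chromosomes 11 and 12 as reference −0.0945, −0.13 and −0.11. Alternatives chosen after seeing the data gave −0.29, −0.29 and −0.19 for protein-coding members and −0.0444, −0.0741 and −0.0952 for the others. Array weights gave −0.14 at 7 days. Leaving out each array gave −0.12 to −0.11, −0.17 to −0.14 and −0.14 to −0.13. From 77.3% to 100% of windows lay below the other autosomes. The cause of these shifts was not tested.

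Counts of called members moved more. With only the arrays compared, which leaves fewer degrees of freedom, the line difference at 7 days gave 100 calls in place of 190 and the difference in response at 7 days 35 in place of 72, and that difference gave 94 with rows above the level alone. With the brightest row of each gene, which leaves fewer rows, Control gave 38 calls at 24 hr and 249 at 7 days, and USFKD 160 at 7 days. Array weights gave 126 in Control at 24 hr. Leaving out each array gave 175 to 202 (untreated), 98 to 130 (24 hr) and 159 to 230 (7 days) for the line difference, 19 to 88 and 456 to 491 for Control at 24 hr and 7 days, 0 to 7 and 278 to 341 for USFKD, and 0 and 32 to 84 for the difference in response. The calls of the difference in response fell to 41 without Control untreated replicate 1, 42 without USFKD untreated replicate 3, and 46 without USFKD untreated replicate 1 and USFKD 24 hr replicate 2.

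Same-numbered arrays had correlated deviations over 0.1 for all 3 numbers in 1 of 15 pairs of groups, Control untreated and Control 24 hr (overall r from −0.416 to 0.345, median 0.0145 over 45 pairs), so the numbers were not taken to pair the arrays of the other groups. With the replicate block the counts were 201, 112 and 188 for the line difference, 71 and 487 for Control, 0 and 326 for USFKD, and 0 and 69 for the difference in response, at the times in order. The block with only the arrays compared, chosen after seeing the data and with few residual degrees of freedom, gave 40 and 3 calls for the line difference at 24 hr and 7 days, 28 for Control at 24 hr, 167 for USFKD at 7 days and 6 for the difference in response at 7 days. Of the 40, 5 were higher and 35 lower in USFKD. The 3 at 7 days were all higher and 0 members were called lower, where 25 of all rows were called higher and 35 lower.

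Of 3916 values for named members, 3697 kept direction and call, 179 lost a call, 28 gained one and 12 changed sign. No call changed sign. Rpl4 in untreated cells went from 0.0173 to −0.0222 with cyclic loess, and with arrays left out the line difference ranged from −0.271 to 0.343 (24 hr) and −0.05555 to 0.652 (7 days) for Casp4, −0.0526 to 0.107 (untreated) and −0.115 to 0.0459 (24 hr) for Rpsa and −0.369 to 0.051 (24 hr) for Kmt2a. The line difference of Hyou1 lost its call at 24 hr and 7 days under some of these settings. Differences close to the dimmest levels cannot be shown by these arrays.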
